A study of Mus musculus with 24 samples.

Results

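Smooth muscle cells of the aortic wall contract with a set of proteins that few other cells make in quantity, and 10 genes of this set were examined in mouse aortas: Acta2, Myh11, Myl9, Mylk, Cnn1, Smtn, Lmod1, Tagln, Des and Myocd. They were taken by symbol from the deposited table of read counts, which holds 21959 genes, and all 10 were present and abundant enough to be tested. RNA came from the aorta between its ascending part and the abdominal bifurcation in 24 male mice, each listed as a separate sample. Wild type animals on plain drinking water formed the WT group (n = 6), and wild type animals given β-aminopropionitrile the WT-BAPN group (n = 7). ATAD3A-KI animals, called KI here, carried an ATAD3A knock-in and drank plain water (n = 5), and ATAD3A-KI-BAPN animals, called KI-BAPN, were knock-in mice given the drug (n = 6). BAPN was supplied at 0.5% (w/v) from 3 weeks of age for 28 days. It inhibits lysyl oxidase, the enzyme that cross-links collagen and elastin, and is used to induce aortic aneurysm and dissection. The sources used here do not give the strain, the design of the knock-in allele or the promoter that drives it, and no age at collection is stated beyond the start and length of treatment. The same start age of 3 weeks and the same 28 days are listed for all 24 animals, those on plain water included. What every group shares beyond these, sex, tissue and housing is not described.

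In smooth muscle, thick filaments of myosin pull on thin filaments of actin once the regulatory light chain of myosin has been phosphorylated, and intermediate filaments tie the contractile units to the membrane. Most genes for these proteins carry CArG boxes, DNA elements bound by serum response factor (SRF). Myocardin, the product of Myocd, binds SRF and switches these genes on, and it is made mainly in smooth muscle and heart. When vascular smooth muscle cells leave the contractile state, as they are known to do in injured arteries, these transcripts fall while matrix and growth genes rise.

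The regulatory element through which Myocd is known to act, or a relative of it, can be seen in promoter sequences of 2 of these genes. RefSeq promoter sequences of the GRCm38.p6 build were at hand for 7 of the 10 genes, all but Tagln, Myh11 and Myocd. They run from 250 bases before to 50 bases after a start listed in RefSeq. The windows of Mylk (chr16:34784700-34784999) and Smtn (chr11:3539243-3539542) lie inside the genes. The GENCODE M21 annotation places Mylk at 34745210 to 35002420 on the forward strand and Smtn at 3517523 to 3540612 on the reverse strand. A CArG box was found in 1 of these 7 windows, and in 535 of all 32851 windows of the same length (1.63%). A relative with 1 G or C inside the core of the box was present in 8.50% of all windows, and either form in 9.98%. Both forms read the same way on both strands, so each match counts for both. The Myl9 promoter, on the forward strand of chromosome 2 upstream of the start (chr2:156775288-156775389), held a CArG box from -161 to -152 and a relative from -99 to -90. The Acta2 promoter, on the reverse strand of chromosome 19 upstream of the RefSeq start (chr19:34255383-34255472), held 2 relatives, from -84 to -75 and from -34 to -25. GENCODE M21 places Acta2 at 34241090 to 34255590 on the reverse strand, so in that annotation the Acta2 stretch lies inside the gene. The 2 stretches are shown 5′ to 3′ on the strand of the gene, because they hold every match found in these genes, and capitals mark the box or its relative.
Myl9: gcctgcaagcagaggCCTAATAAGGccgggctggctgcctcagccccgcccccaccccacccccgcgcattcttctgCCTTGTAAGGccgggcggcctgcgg
Acta2: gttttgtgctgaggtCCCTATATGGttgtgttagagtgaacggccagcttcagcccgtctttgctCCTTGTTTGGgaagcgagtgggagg
A G or C inside the core is a known property of the Acta2 boxes. Windows without a match lack these letters within 300 bases only, and nothing was measured here on binding.

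The libraries held 13127645 to 26490651 counts. Levels are given in CPM, the depth-scaled read count, with effective library sizes. The 10 genes together took 1.27% (KI-BAPN replicate 3) to 6.12% (KI replicate 3) of a library's counts. One WT library stood apart: in WT replicate 5 the 13 skeletal muscle markers summed to 7798 CPM, against at most 33.7 CPM in any of the other 23 libraries, and 8 airway epithelium markers summed to 18592 CPM. Results that rest on this library are given with and without it. Atad3a, the targeted gene, was higher in every knock-in library than in any WT library, as labelled, at 617 to 1629 CPM in KI and 231 to 1038 CPM in KI-BAPN, against 30.2 to 61.4 CPM in WT and 24.9 to 44.8 CPM in WT-BAPN.

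Per kilobase of transcript, Acta2 was the most abundant of the 10 and Myocd the least. Over the 24 libraries Acta2, the actin of vascular smooth muscle, had a mean level of 10006 ± 4549 CPM per kb (SD), followed by Myl9, the regulatory light chain, at 5212 ± 2067. Myh11, the smooth muscle myosin heavy chain, was at 864 ± 324 CPM per kb and Cnn1, calponin, at 789 ± 386. Myh11 lay above Cnn1 in only 16 of 24 libraries, so these neighbours did not differ beyond their spread, whereas Acta2 exceeded Myl9 in 23 of 24. Smtn (222), Lmod1 (162), Mylk (79.7), Des (65.4), Tagln (10.9) and Myocd (6.33 CPM per kb) followed in that order, each above the next in at least 20 libraries. The Des mean had an SD of 133 CPM per kb and includes 684 in WT replicate 5, where no other library was above 86.0. Its mean without that library was not computed.

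Tagln, which encodes transgelin (SM22α), an actin-binding protein, was listed at a level 917-fold below Acta2 per kilobase. In the GENCODE M21 annotation of GRCm38, where the gene lies on chromosome 9 from 45929619 to 45936058, 67.9% of its exon bases are covered by exons of genes on the opposite strand. The antisense gene Gm48529, which has no row in the deposited table, covers 62.4%, and Pcsk7, which has one, covers 5.43%. The sources do not state whether counting used strand, or whether genes without a row, such as Gm48529, were counted. Whether reads of Tagln and of its antisense neighbours were told apart is therefore unknown, as is the share of Tagln reads that were counted. The cause of the low level was not tested, and all Tagln values below are uncertain. Overlaps were smaller for Smtn (16.3% of exon bases), Mylk (6.85%) and Des (5.86%) and 0 for the other 6 genes. Acta2 shares 84.2% of its coding bases with the enteric actin Actg2 and 85.4% with the skeletal actin Acta1, with identical stretches of at most 29 bases in either. With the widely expressed cytoplasmic actins Actb (82.8%) and Actg1 (81.5%) it shares longer identical stretches, of up to 47 and 56 bases, and how reads that fit both were assigned is not stated.

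**Figure D1:**
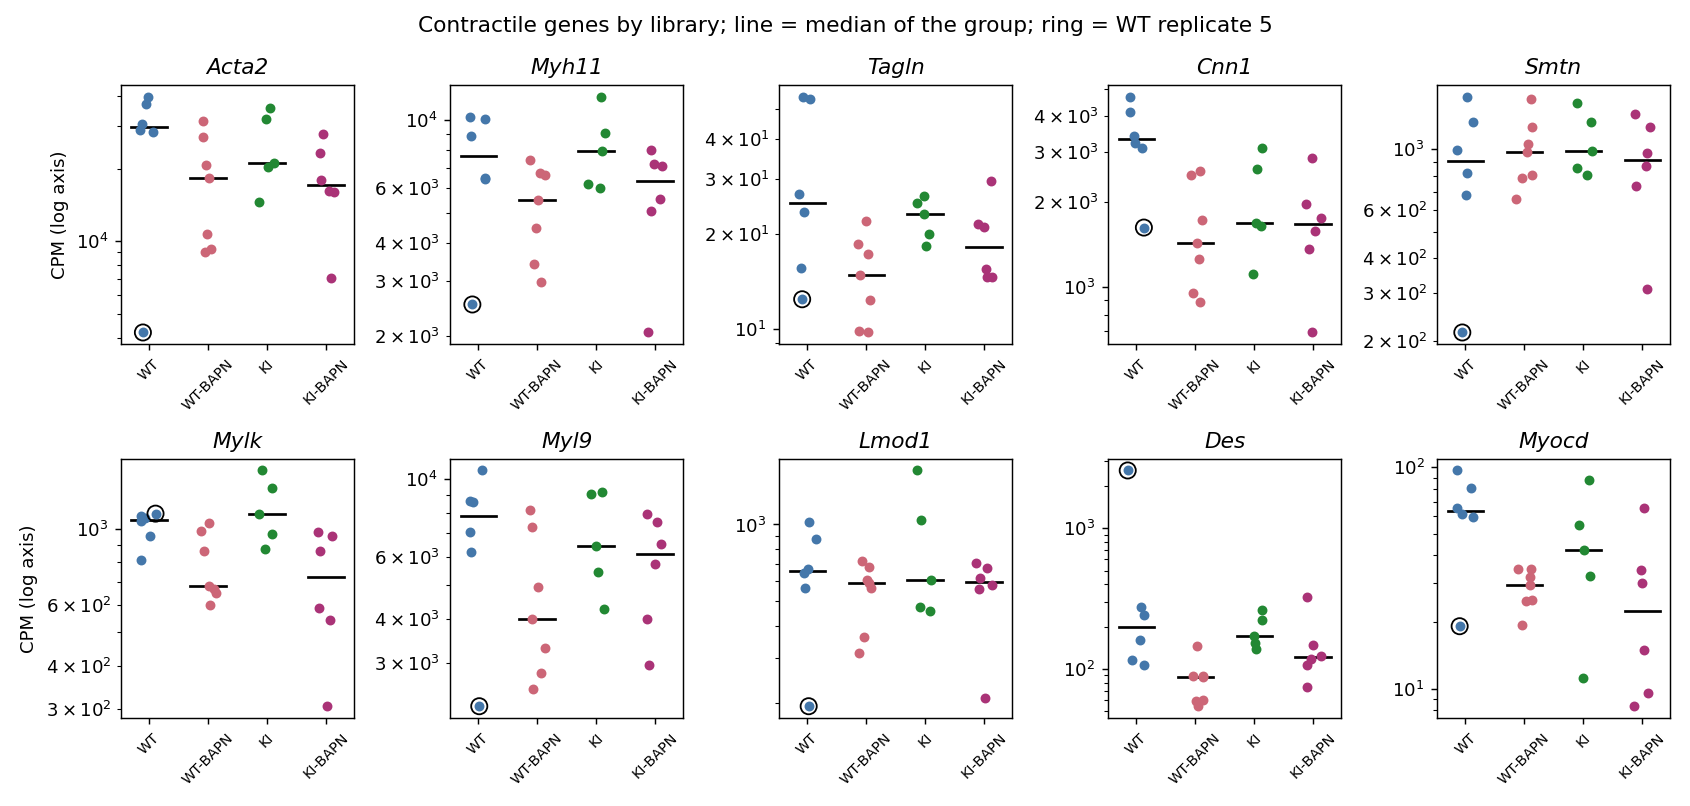
Level of each of the 10 genes in each library, in CPM on a log axis, by group; points are libraries, lines are group medians, and the ring marks WT replicate 5. The groups overlap in every panel, and WT replicate 5 is the lowest WT library for 8 of the 10 genes and the highest for Mylk and Des.

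The first question was what the drug did in wild type animals. On BAPN in WT, 2 of the 10 genes fell, Des and Tagln, and none rose. Over all 14216 genes tested, 6.14% were called in either direction and 2.70% as lower (edgeR quasi-likelihood test, Benjamini-Hochberg adjusted p under 0.05). The log2 change was below 0 for 9 of the 10 genes, against 53.4% of all genes, with a median of -0.62 against -0.04. At an unadjusted p under 0.05, 4 of the 10 were lower, the additional ones being Cnn1 and Myocd, against 12.5% of all genes. Whole aorta was sequenced, so fewer smooth muscle cells in the tissue and less RNA per cell cannot be told apart. Without WT replicate 5 the count was 3, with Cnn1 added. It was 1, Des alone, without any one of WT replicates 1, 4 and 6 or WT-BAPN replicates 3, 4, 5 and 6.

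**Figure D2:**
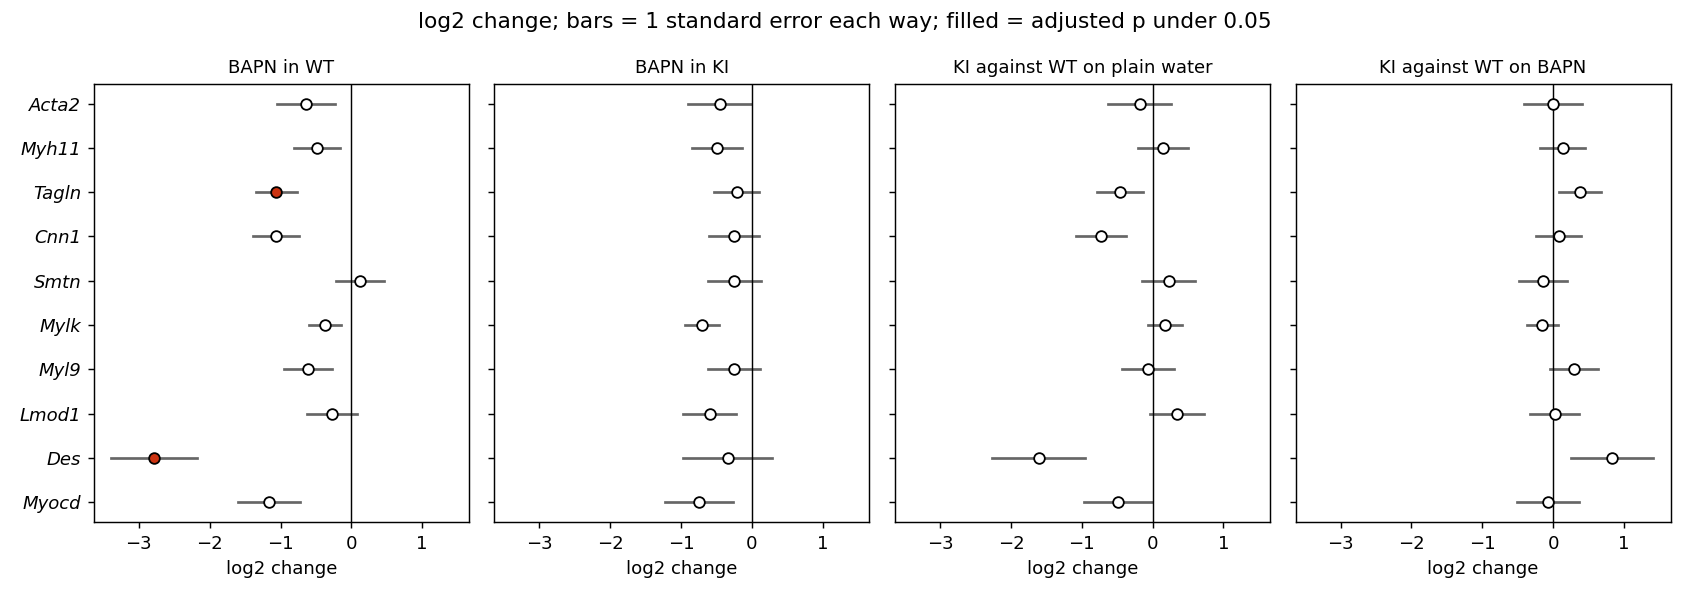
log2 change of each gene in 4 comparisons, from the edgeR fit to all 24 libraries; bars are 1 standard error to each side, and filled points have an adjusted p under 0.05. Des and Tagln in the BAPN comparison within WT are the only filled points.

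Transcripts of the filament proteins themselves had log2 changes below 0 on BAPN in WT that did not pass the test. Acta2 (ENSMUSG00000035783) ranged from 4198 to 39695 CPM in WT with a median of 29747, and from 9005 to 31546 CPM in WT-BAPN with a median of 18266. Its 4198 CPM came from WT replicate 5, and the other WT libraries lay between 28359 and 39695 CPM, above all but 1 of the 7 WT-BAPN libraries. The WT-BAPN group was itself split, with replicates 2, 5 and 6 at 9005 to 10681 CPM and the other 4 at 18266 to 31546. The log2 change was -0.64 ± 0.41 (SE, approximate 95% interval -1.44 to 0.17, edgeR adjusted p = 0.347), and -0.86 without WT replicate 5 (adjusted p = 0.109, range over all alternatives 0.00821 to 0.512). Myh11 (ENSMUSG00000018830), the motor protein of the thick filament, ranged from 2521 to 10205 CPM in WT (median 7657) and from 2978 to 7430 CPM in WT-BAPN (median 5484), a log2 change of -0.48 ± 0.32 (adjusted p = 0.362). Myl9 (ENSMUSG00000067818), whose phosphorylation switches contraction on, ranged from 2264 to 10541 CPM in WT (median 7821) and from 2530 to 8169 CPM in WT-BAPN (median 3987), a log2 change of -0.61 ± 0.34 (adjusted p = 0.265). For both genes WT replicate 5 was again the lowest library of its group. Limma voom with quality weights, which gives less weight to libraries that stand apart, called all 3 filament genes lower.

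Among the proteins that regulate or stabilise the filaments, Cnn1 and Tagln had the largest log2 changes on BAPN in WT, and of these only Tagln passed the test. Cnn1 (ENSMUSG00000001349), an inhibitor of the actin-activated myosin ATPase, ranged from 1622 to 4690 CPM in WT with a median of 3315, and from 887 to 2568 CPM in WT-BAPN with a median of 1433. Apart from WT replicate 5 at 1622 CPM, every WT library, at 3095 CPM or more, was above every WT-BAPN library. The share of all genes that separate in this way without that library was not computed. The log2 change was -1.06 ± 0.32 (edgeR adjusted p = 0.0516), which did not pass, and -1.20 without WT replicate 5 (adjusted p = 0.0253), which did. Over 26 alternatives it was called in 13, with adjusted p from 0.000488 to 0.109.

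Mylk (ENSMUSG00000022836), the calcium-calmodulin dependent kinase of the light chain, was at 814 to 1107 CPM in WT (median 1064) and at 600 to 1038 CPM in WT-BAPN (median 684), a log2 change of -0.37 ± 0.22 (adjusted p = 0.300). It was the only filament regulator for which WT replicate 5, at 1107 CPM, was the highest of its group. Smtn (ENSMUSG00000020439), smoothelin, an actin-binding protein of contractile cells, was at 215 to 1558 CPM in WT (median 909) and 657 to 1533 CPM in WT-BAPN (median 983). Its log2 change of 0.12 ± 0.34 (adjusted p = 0.855) was the only one above 0, and it was -0.08 without WT replicate 5. Lmod1 (ENSMUSG00000048096), leiomodin, which nucleates actin filaments, was at 194 to 1027 CPM in WT (median 658) and 315 to 719 CPM in WT-BAPN (median 592), a log2 change of -0.27 ± 0.35 (adjusted p = 0.654). The approximate 95% intervals of these 3 genes all include 0, and that of Smtn ran from -0.55 to 0.79.

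Tagln (ENSMUSG00000032085) was at 12.4 to 54.6 CPM in WT with a median of 25.2, and at 9.73 to 22.0 CPM in WT-BAPN with a median of 14.8. The WT group was spread out, with replicates 4 and 6 at 53.6 and 54.6 CPM and the other 4 at 12.4 to 26.9. The log2 change was -1.06 ± 0.29 (edgeR adjusted p = 0.0369). It was called in 16 of 26 alternatives, all with a log2 change below 0, and the adjusted p ranged from 0.00934 to 0.103. The call was lost with library totals as the only scaling (adjusted p = 0.0646) and when only the WT and WT-BAPN libraries were fitted (0.0802).

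Des (ENSMUSG00000026208), desmin, the intermediate filament protein shared by smooth, skeletal and heart muscle, had the largest log2 change of the 10 over all libraries. Without WT replicate 5 those of Myocd, Tagln and Cnn1 were larger. In WT its level was 107 to 2566 CPM with a median of 200.04, and in WT-BAPN 54.4 to 146 CPM with a median of 87.7. The 2566 CPM belonged to WT replicate 5, and the other WT libraries lay between 107 and 274 CPM. Except for WT-BAPN replicate 1, at 146 CPM, every WT-BAPN library was below every WT library. The share of all genes that separate with 1 library set aside was not computed. The log2 change was -2.79 ± 0.61 (edgeR adjusted p = 0.0161), and -1.10 ± 0.32 without WT replicate 5 (adjusted p = 0.0379, range over 27 alternatives 0.000129 to 0.124). The skeletal actin Acta1 was at 1976 CPM in WT replicate 5, and the WT median of Acta1 was 3.14 CPM. All 13 skeletal muscle markers of the list had reads in WT without that library too, where they summed to 10.4 to 23.8 CPM, against 7.06 to 12.7 CPM in WT-BAPN. With the mean log2 CPM of these markers as a covariate, an alternative added after the data were seen, Des was at -0.82 (adjusted p = 0.124). With muscle and fat scores it was at -0.85 (adjusted p = 0.119), so the call was lost in both.

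**Figure D3:**
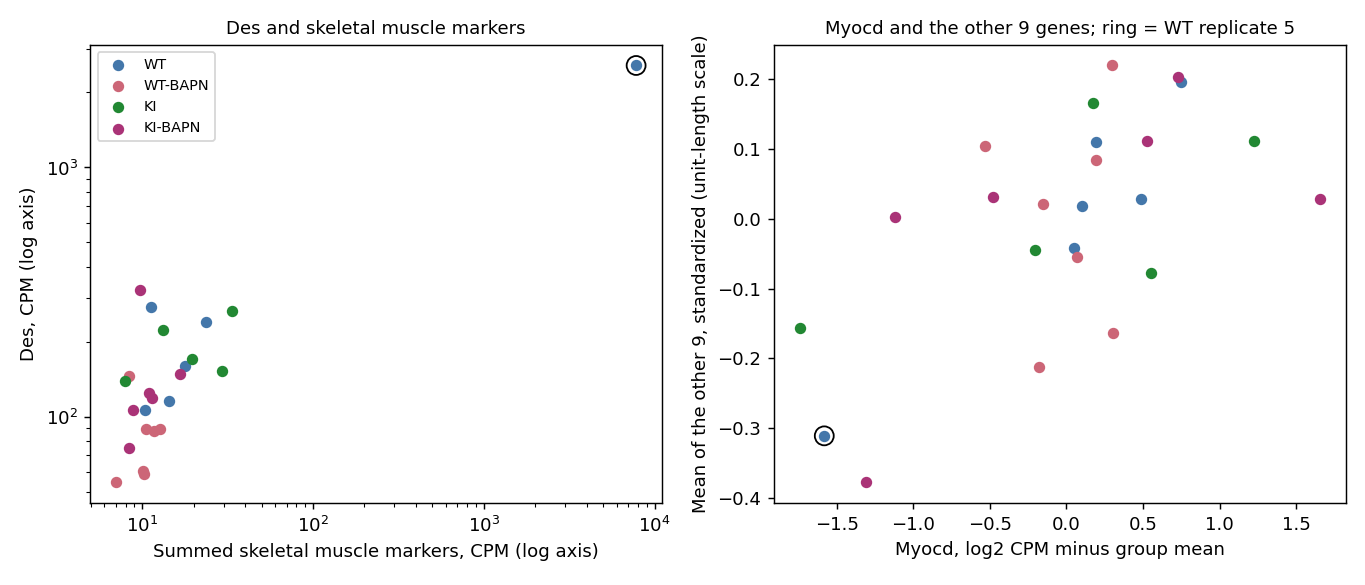
Left, Des against the summed level of 13 skeletal muscle markers, both in CPM on log axes; right, Myocd (log2 CPM minus the group mean) against the mean of the other 9 genes, each standardized after centring on its group. Points are the 24 libraries, and the ring marks WT replicate 5, which is far from the others on the left at 7798 and 2566 CPM and lies at the lower left on the right.

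Myocd (ENSMUSG00000020542), the regulator of the others, was lower on BAPN in WT without passing the test. Its level was 19.2 to 96.8 CPM in WT with a median of 63.7, and 19.5 to 34.7 CPM in WT-BAPN with a median of 29.5. Without WT replicate 5, at 19.2 CPM, the WT libraries began at 59.5 CPM and did not overlap the WT-BAPN libraries. Over all libraries 0.872% of genes were lower without overlap, and the share without that library was not computed. The log2 change was -1.16 ± 0.44 (edgeR adjusted p = 0.107), and -1.35 ± 0.42 without that library (adjusted p = 0.0525). It was called in 3 of 26 alternatives, with adjusted p from 0.00349 to 0.202. One of these left out WT replicate 5 and KI replicates 1, 2 and 5 (log2 change -1.35, edgeR adjusted p = 0.0312). An earlier analysis of these data found these 4 libraries rich in other tissue. All 4 are plain-water libraries, and KI-BAPN replicate 3, whose adipocyte markers summed to 11489 CPM, was kept. In KI replicate 5 they summed to 11062 CPM. The log2 change of Myocd was thus about as large as those of Tagln and Cnn1, with a larger standard error.

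The second comparison asked the same question in KI animals. None of the 10 genes was called, by edgeR, DESeq2 or limma voom, where edgeR called 0.0352% of all genes. All 10 log2 changes were below 0, against 53.7% of all genes, with a median of -0.40 against -0.03. Mylk was the only one with an unadjusted p under 0.05, against 10.1% of all genes. Its levels in KI were 1106, 967, 1479, 1313 and 872 CPM, and in KI-BAPN 305 to 982 CPM with a median of 725, a log2 change of -0.70 ± 0.24 (edgeR adjusted p = 0.298). Of the 6 KI-BAPN libraries, replicates 2, 3, 4 and 6 lay below every KI library. Without KI-BAPN replicate 3 the change was -0.55 (adjusted p = 0.624, range over 24 alternatives 0.1004 to 0.624).

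The other KI values were of the same kind. Myocd was at 32.4, 11.1, 42.2, 87.6 and 55.0 CPM in KI and at 8.34 to 65.7 CPM in KI-BAPN (median 22.5), a log2 change of -0.75 ± 0.48 (adjusted p = 0.598). Its KI-BAPN levels covered nearly the whole range seen in KI. Acta2 was at 21180, 14601, 35569, 32185 and 20237 CPM in KI and at 7078 to 27902 CPM in KI-BAPN (median 17055), a log2 change of -0.45 ± 0.45 (adjusted p = 0.747). Des, at 171, 139, 152, 222 and 264 CPM in KI and 75.1 to 323 CPM in KI-BAPN (median 122), had a log2 change of -0.34 ± 0.63 (adjusted p = 0.870). Tagln was at 26.3, 20.04, 23.2, 25.1 and 18.3 CPM in KI, a narrower range than in WT, and at 14.6 to 29.4 CPM in KI-BAPN (median 18.3). For Lmod1 the changes were -0.60 ± 0.38, for Myh11 -0.49 ± 0.35, for Cnn1 -0.25 ± 0.35, for Smtn -0.25 ± 0.37, for Myl9 -0.25 ± 0.37 and for Tagln -0.22 ± 0.32. KI-BAPN replicate 3 was the lowest or joint lowest library of its group for all of them, and beside its Acta2 of 7078 CPM its adipocyte markers summed to 11489 CPM, its macrophage markers to 2472 CPM and its erythroid markers to 3695 CPM. These were the highest sums of the group, where the medians were 1672, 363 and 485 CPM, and their part in the result was not tested.

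The next comparisons set KI against WT on plain water and on BAPN. None of the 10 genes was called by edgeR, DESeq2 or limma voom on plain water, where edgeR called 0.190% of all genes, or on BAPN, where it called 0.00703%. On plain water the median log2 difference was -0.13 (all genes -0.01), 6 of 10 were below 0, and Des was the only one with an unadjusted p under 0.05, against 16.9% of all genes. Des differed by -1.61 ± 0.66 (edgeR adjusted p = 0.214), and by 0.08 ± 0.35 without WT replicate 5 (adjusted p = 0.934), so the direction rested on that library. Cnn1 was lower in KI on plain water by -0.73 ± 0.36 (adjusted p = 0.299), at 1644, 1112, 3105, 2599 and 1682 CPM against a WT median of 3315. Only KI replicate 3 reached the 3095 CPM at which the WT libraries other than replicate 5 began. Tagln (-0.46 ± 0.32), Myocd (-0.49 ± 0.48) and Acta2 (-0.18 ± 0.45) were also below 0 without passing, and Lmod1 (0.35 ± 0.38), Smtn (0.22 ± 0.37), Mylk (0.18 ± 0.24) and Myh11 (0.14 ± 0.35) above it.

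On BAPN the KI and WT aortas had close values for most of the 10 genes. The median log2 difference was 0.05 (all genes -0.02), no gene had an unadjusted p under 0.05, against 13.9% of all genes, and 9 of the 10 estimates lay between -0.15 and 0.38. The exception was Des at 0.83 ± 0.58 (edgeR adjusted p = 0.528). Acta2 means were 18066 ± 7098 CPM (SD, n = 6) in KI-BAPN and 18074 ± 8963 CPM (SD, n = 7) in WT-BAPN, a log2 difference of -0.00059 ± 0.41 with an approximate 95% interval of -0.81 to 0.81. Myocd was at a mean of 27.2 ± 21.7 CPM (SD, n = 6) in KI-BAPN and 28.6 ± 5.71 CPM (SD, n = 7) in WT-BAPN (log2 difference -0.08 ± 0.44). The means of Myocd matched while its spread did not: 3 KI-BAPN libraries were at 14.9 CPM or less and 1 at 65.7, both outside the 19.5 to 34.7 CPM of WT-BAPN.

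Whether BAPN acted differently in the 2 genotypes was tested with an interaction term. None of the 10 genes passed with edgeR, DESeq2 or limma voom, and edgeR called 0 of all 14216 genes. Des had the only unadjusted p under 0.05, against 14.8% of all genes, with an interaction of 2.44 ± 0.87 (edgeR adjusted p = 0.281), and of 0.75 without WT replicate 5 (adjusted p = 0.431). Tagln (0.84 ± 0.43) and Cnn1 (0.81 ± 0.48) had the next largest values. A smaller fall in KI than in WT was therefore not shown for any of them.

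How the genes varied among animals was examined after the group means had been subtracted from log2 CPM. Of the 9 genes other than Myocd, the 7 without Tagln and Des rose and fell together, Mylk more loosely than the rest. Of the 36 pairs among the 9 genes other than Myocd, 23 passed a permutation test of Pearson's r (100000 resamples within groups, Benjamini-Hochberg over 36 pairs). All 21 pairs without Tagln and Des were among them, with r from 0.47 to 0.95 and a median of 0.84. The tightest pairs were Myh11 with Smtn (r = 0.95, Spearman's rho = 0.96), Acta2 with Myl9 (r = 0.94, rho = 0.93) and Cnn1 with Myl9 (r = 0.93, rho = 0.95), each with an adjusted permutation p of 4.5e-05 and a raw p of 1e-05, the smallest that these resamples can give. Without the 2 libraries farthest from the median of the first gene, r was 0.91, 0.91 and 0.93. Among the 21 pairs the lowest values left were 0.35 for Mylk with Myl9 and 0.36 for Mylk with Lmod1. Over all 24 libraries these were 0.48 and 0.52. Values of 1 library share its depth and its mix of cells, so these r describe how the aortas varied and not a link between 2 genes. The share of all gene pairs that would pass the same test was not computed.

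Mylk was the loosest of the filament genes, with r from 0.47 with Acta2 to 0.70 with Myh11. Tagln passed in 2 of 8 pairs, with Cnn1 (r = 0.50, rho = 0.43, adjusted permutation p of r = 0.0170) and Myl9 (r = 0.55, rho = 0.45, adjusted permutation p of r = 0.0199). By rho neither passed (adjusted permutation p = 0.0632 and 0.0628). Des passed in 0 of 8, with r from -0.39 to 0.28, and none of these 8 had an adjusted p of rho under 0.05. Without WT replicate 5 the pairs of Tagln had r from 0.25 to 0.39, the pairs of Des from 0.28 to 0.62, and the 21 pairs above had r from 0.66 to 0.95.

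**Figure D4:**
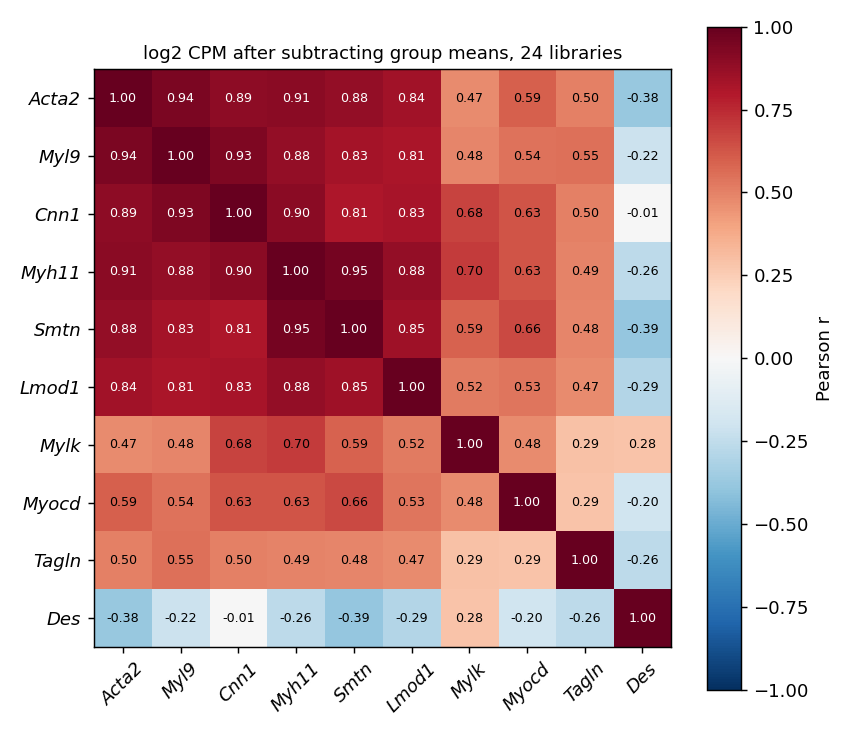
Pearson's r between each pair of the 10 genes over 24 libraries, in log2 CPM after subtraction of group means; red is positive and blue negative. The upper left block of filament and filament-regulating genes reaches 0.95, the row of Myocd holds values up to 0.66, and Tagln and Des stand apart.

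Myocd had a median r of 0.54 with the other 9 genes. Over the 24 libraries r was 0.66 with Smtn (rho = 0.58), 0.63 with Myh11 (rho = 0.57), 0.63 with Cnn1 (rho = 0.60), 0.59 with Acta2 (rho = 0.51), 0.54 with Myl9 (rho = 0.54) and 0.53 with Lmod1 (rho = 0.35). These 6 of 9 passed the permutation test of r, with raw p from 0.00123 to 0.0228 and Benjamini-Hochberg adjusted p over 9 from 0.00663 to 0.0342. For rho, 5 of them passed at adjusted permutation p of 0.0223 to 0.0243, and Lmod1 did not (adjusted permutation p = 0.175). Mylk (r = 0.48, rho = 0.42, adjusted permutation p = 0.0752), Tagln (r = 0.29, rho = 0.17, adjusted permutation p = 0.202) and Des (r = -0.20, rho = 0.08, adjusted permutation p = 0.350) did not pass. The share of all genes that would pass with Myocd was not computed. Without KI replicate 2 and WT replicate 5, the libraries farthest from the median of centred Myocd, r was 0.57 for Smtn, 0.52 for Myh11, 0.48 for Cnn1, 0.40 for Acta2, 0.32 for Myl9 and 0.31 for Lmod1, each below its value over all 24.

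These calls depended on 1 library. Without WT replicate 5 none of the 9 passed, with r of 0.54 for Smtn, 0.55 for Cnn1, 0.57 for Mylk, 0.51 for Myh11 and 0.45 for Acta2 (adjusted permutation p of 0.0752 to 0.0873 for these 5). Over all 9 genes and all alternatives the number that passed ran from 0 to 8.

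Within single groups the picture differed between WT and WT-BAPN, although no r passed adjustment over the 27 tested and the difference between groups was not tested. In WT (n = 6) Myocd had r of 0.99 with Myl9 (exact permutation p = 0.00278, adjusted over 27 p = 0.0751) and of 0.92 to 0.96 with Acta2, Myh11, Cnn1, Smtn and Lmod1, with WT replicate 5 at the low end of each of these genes. For Tagln r was 0.70, for Mylk -0.17 and for Des, where WT replicate 5 was the highest library, -0.89. In WT-BAPN (n = 7), where Myocd covered only 19.5 to 34.7 CPM, the 9 values lay between -0.25 and 0.22. In KI-BAPN (n = 6) the highest were Mylk (r = 0.83, exact permutation p = 0.0389, adjusted p = 0.155) and Myh11 (r = 0.76, exact permutation p = 0.0417, adjusted p = 0.155). KI has 5 libraries and was not examined alone.

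Among 10880 other genes with a mean of at least 5 CPM, those most like Myocd by r over the 24 libraries were Cnksr3 (0.94), C2cd2 (0.91), Pde4dip (0.90), Pxdc1 (0.88) and Mfhas1 (0.87), and without WT replicate 5 these had r of 0.84 to 0.93. Those most like the mean of the other 9 contractile genes were Tpm2 (0.96), a tropomyosin of the thin filament, Sgca (0.96), a sarcoglycan of the muscle membrane, Qsox1 (0.95), Tmem63a (0.95) and Sh3bgr (0.94). No gene was on both lists. The r of Myocd with that mean was 0.61, and 0.52 without WT replicate 5, and 16.5% of the 10880 genes had a higher one.

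Genes that work beside the 10 were described from lists of the same pathway. Of 26 other filament and adhesion genes tested, 3 fell on BAPN in WT by edgeR and none rose, where 2.70% of all genes were called lower. DESeq2 called 4 of the 26 and limma voom 12, and their shares of all genes are not given here. All 26 log2 changes were below 0, against 53.4% of all genes, with a median of -0.43, and 25 of 26 without WT replicate 5. The genes that fell included Palld, palladin, an actin bundling protein (-1.35 ± 0.34, edgeR adjusted p = 0.0264), and Synm, synemin, an intermediate filament protein that assembles with desmin (-1.18 ± 0.30, adjusted p = 0.0279). Palld was at 137 to 350 CPM in WT against 56.2 to 116 CPM in WT-BAPN, without overlap, and lost its call in 2 of 26 alternatives, without WT replicate 1 and with muscle and fat scores as covariates. Synm was at 51.2 to 191 CPM against 26.5 to 52.8 CPM and was at -0.78 without WT replicate 5 (adjusted p = 0.0596). In all, 0.872% of genes were lower without overlap in this comparison. In KI, 25 of the 26 changes were below 0 with a median of -0.38, and none was called by edgeR, DESeq2 or limma voom. The smallest p was that of Tpm1 (-0.57 ± 0.26, edgeR adjusted p = 0.464), the only one under 0.05 unadjusted.

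Of 20 tested regulators of SRF and its cofactors 2 fell on BAPN in WT and none rose, where 2.70% of all genes were called lower. Without WT replicate 5, edgeR called 1 lower and 1 higher. Over all libraries DESeq2 called 3 of the 20 and limma voom 5. Yap1, a coactivator of the Hippo pathway, was at 140 to 208 CPM in WT and 109 to 148 CPM in WT-BAPN (-0.49 ± 0.14, edgeR adjusted p = 0.0380, called in 15 of 26 alternatives). Klf5, a zinc finger factor, was at -3.08 ± 0.80 (adjusted p = 0.0289) with 62.4 CPM in its highest WT library against a WT median of 1.74, and at -0.34 without WT replicate 5 (adjusted p = 0.595). Klf5 thus had no call apart from that library. SRF itself, named here for its role and outside the naming rule, had a log2 change of -0.49 ± 0.27 in WT (adjusted p = 0.265) and -0.62 ± 0.30 in KI (adjusted p = 0.492), and the myocardin relatives Mrtfa (-0.47 ± 0.19, adjusted p = 0.131) and Mrtfb (0.13 ± 0.11, adjusted p = 0.499) did not pass in WT.

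Of 27 tested genes for calcium handling and myosin phosphorylation none was called on BAPN in WT by edgeR or DESeq2, 3 had an unadjusted p under 0.05, against 25% of all genes, and limma voom called 8. The smallest p was that of Pln, phospholamban (-1.50 ± 0.56, edgeR adjusted p = 0.103), at -0.44 without WT replicate 5. Agtr1a, an angiotensin II receptor, differed most between KI and WT on plain water (2.84 ± 0.65, adjusted p = 0.0764), with 1.85 to 65.0 CPM in KI against 1.86 to 3.55 CPM in WT. It was called at 2.99 without WT replicate 5 (adjusted p = 0.0332), and stood at -0.07 once KI replicates 1, 2 and 5 were left out as well, so its direction rested on those libraries.

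Of 20 tested genes of the synthetic state, to which smooth muscle cells are known to turn when they lose contractile proteins, 2 rose and 1 fell on BAPN in WT. Higher calls made up 3.44% of all genes. Spp1, osteopontin, was at 1.27 to 8.58 CPM in WT and at 1.23 to 1075 CPM in WT-BAPN with a median of 3.11 (6.03 ± 1.58, edgeR adjusted p = 0.0299), so the rise was carried by part of the group. Tnfrsf11b, osteoprotegerin, was at 3.32 to 20.2 CPM and at 11.8 to 219 CPM (2.15 ± 0.61, adjusted p = 0.0402), but at 1.14 without WT-BAPN replicate 7 (adjusted p = 0.0973), and Sdc4, syndecan-4, fell by 0.79 ± 0.24 on the log2 scale (adjusted p = 0.0489). Spp1 was called in 16 of 26 alternatives, Tnfrsf11b in 14 and Sdc4 in 15. The list was without a call in edgeR when WT replicate 1, 2, 3 or 4 or WT-BAPN replicate 5 was left out, and DESeq2 called 7 and limma voom 6. In KI on BAPN, 18 of 20 changes were above 0 with a median of 0.78 and edgeR called none, with 5 at an unadjusted p under 0.05, DESeq2 calling 1 and limma voom none.

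Markers of other cells differed in the BAPN comparison in WT, mostly through WT replicate 5. All 8 tested skeletal muscle markers and all 7 tested airway epithelium markers were called lower, with 3 of 8 Schwann cell, 1 of 9 cardiac muscle and 1 of 5 T cell markers, and 1 of 10 adventitial fibroblast markers was called higher, against 2.70% of all genes lower and 3.44% higher. In WT replicate 5 these lower lists summed to 7798, 18592, 1041, 1675 and 232 CPM in that order, and in the other WT libraries to at most 23.8, 115, 333, 296 and 6.52 CPM. Without that library the edgeR calls of skeletal muscle, Schwann cell, cardiac muscle and T cell markers were lost, 4 of 6 airway epithelium markers were still lower, and 1 of 10 fibroblast markers was higher, where 2.96% of all genes were lower and 4.89% higher. Macrophage, endothelial, pericyte, adipocyte, sympathetic neuron, mesothelium and erythroid markers had no call in edgeR. Summed macrophage markers were at 65.5 to 2510 CPM in WT (median 218) and 127 to 1120 CPM in WT-BAPN (median 307), and summed fibroblast markers at 1189 to 5448 CPM (median 2599) and 1448 to 4308 CPM (median 2939). Their part in the levels of the contractile genes was not tested.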

How the data were processed

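Polyadenylated RNA of 24 aortas was measured as read counts per gene, which the authors deposited without normalization. Per the submitters' processing notes the builds were GRCm38 and mm10, and the tools DESeq2, HISAT2, FastQC and Trim Galore. The sources used here give no versions, read counter or strand setting, and the coordinates in the deposited table do not match GENCODE M21 of GRCm38. No per-sample column was left unmatched and every row names a gene.

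From the deposited counts, edgeR 4.0.16 (R 4.3.3) fitted 1 mean per group to 14216 genes kept by filterByExpr, with TMM factors, robust legacy quasi-likelihood tests and Benjamini-Hochberg adjustment at 0.05. Standard errors are the log2 change over the square root of F. CPM use TMM-scaled totals, and log2 values a prior count of 2. The deposited gene length (other, in bases, per the file headers) gave CPM per kilobase. Correlations used group-centred log2 CPM with permutation within groups.

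The 10 genes, the pathway and marker lists and the tests were chosen with earlier results of these data known. From each pathway list the text names up to 3 called genes, or the gene with the smallest p, and the 5 genes most like Myocd and most like the other 9; 1 called gene is not reported here. Alternatives were other scalings, DESeq2 1.42.0, limma voom 3.58.1, other filters, thresholds, covariates and libraries left out. Steps were tested on simulated data. Between libraries of a group the chi-square was at least 32.6 per degree of freedom, so none is a copy of another, and animals are taken as independent as the labels list them. Depth, 13127645 to 26490651 counts, bears least on genes at this abundance; Tagln and Myocd are the lowest.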

Additional observations from a re-analysis of the deposited data

Results flagged for a closer look

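In 5 of 40 sets of values (10 genes in 4 groups) 1 library lay farther from the rest than Dixon's test allows at the 95% level, where chance flags about 1 set in 20. The Acta2 level of WT replicate 5 was 4198 CPM, and the remaining 5 WT aortas lay between 28359 and 39695 CPM. Des in the same library was at 2566 CPM, against 107 to 274 CPM, beside skeletal muscle markers that summed to 7798 CPM there. The Des level of WT-BAPN replicate 1 was 146 CPM, and the remaining 6 libraries lay between 54.4 and 89.6 CPM. Des in KI-BAPN replicate 5 was at 323 CPM, against 75.1 to 148 CPM, beside pericyte markers that summed to 5376 CPM, the highest of its group. Lmod1 in KI-BAPN replicate 3 was at 209 CPM, against 561 to 706 CPM, beside the highest adipocyte, macrophage and erythroid sums of its group. No cause was tested for any of these.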

How the results depend on the processing

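Over 2320 recomputed values of single genes 84 changed direction, and none of these 84 had an adjusted p under 0.05. For BAPN in WT, where edgeR called 2 of the 10 genes, limma voom called 7 (Acta2, Myh11, Tagln, Cnn1, Myl9, Des and Myocd), the fit with muscle and fat scores as covariates 5 (Acta2, Myh11, Tagln, Cnn1 and Myl9), the fit to 20 libraries (without WT replicate 5 and KI replicates 1, 2 and 5) 4 (Tagln, Cnn1, Des and Myocd), and an adjusted p under 0.01 gave 0. With 1 library left out at a time the count was 1 to 3. In the other 4 comparisons the count of 0 stayed at 0 throughout. Of the correlations with Myocd 6 passed, 0 in the 20 libraries, and 0 to 7 with 1 library left out, the 0 without WT replicate 5. The cause of these differences was not tested.

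The labels number the replicates without stating that equal numbers pair animals. Same-numbered deviations from the group means correlated between -0.52 and 0.57, and for WT with WT-BAPN 5 of 6 exceeded 0.1. Libraries of different numbers were not compared, so these values cannot decide whether the numbers pair animals. With the number as a replicate block the count for BAPN in WT was again 2, with Cnn1 called (adjusted p = 0.0438) and Tagln lost (adjusted p = 0.103), and with the block Acta2 (KI against WT on BAPN) was at 0.33 and Myh11 (interaction) at 0.15.

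Values that changed direction lay near 0 for the most part. Acta2, KI against WT on BAPN, was at 0.013 with RLE factors, library totals or DESeq2, 0.040 with upper quartile factors, 0.0016 without a count filter, 0.0022 with a stricter filter, 0.0084 with only the groups compared, 0.37 with voom and 0.54 with covariates. Myh11 (interaction) was at 0.011 with RLE factors or DESeq2, 0.25 with voom and 0.56 with covariates. Voom also put Smtn at -0.022 for BAPN in WT and 0.014 for KI against WT on BAPN, Des at 0.22 for KI against WT on plain water and Agtr1a at 0.050 for BAPN in KI. With covariates Smtn was at -0.24 for BAPN in WT, 0.19 for KI against WT on BAPN and 0.12 for the interaction, Cnn1, Myl9 and Des at 0.14, 0.11 and 0.025 for BAPN in KI, Myh11 at -0.0014 on plain water, Mylk at 0.089 on BAPN and Lmod1 at 0.24 for the interaction. Myl9 on plain water was at 0.051 with library totals, which moved the median of all genes to 0.11 for BAPN in WT and to -0.12 for the interaction. In the 20 libraries Smtn was at -0.087 for BAPN in WT, Acta2, Myl9, Des and Agtr1a at 0.042, 0.15, 0.060 and -0.069 on plain water, Acta2 and Agtr1a at -0.043 and 0.19 for the interaction and Agtr1a at 1.39 for BAPN in KI. The r of Myocd with Des was 0.11 without centring and 0.27 in the 20 libraries.

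With 1 library left out, the ranges that crossed 0 were, for KI against WT on BAPN, Acta2 -0.17 to 0.19, Cnn1 -0.13 to 0.24, Lmod1 -0.078 to 0.19, Mylk -0.27 to 0.0029, Myocd -0.56 to 0.11 and Smtn -0.29 to 0.035. On plain water they were Des -1.82 to 0.080, Lmod1 -0.039 to 0.51, Myh11 -0.034 to 0.26 and Myl9 -0.25 to 0.071, for the interaction Lmod1 -0.49 to 0.060, Myh11 -0.12 to 0.17 and Myocd -0.073 to 0.79, for BAPN in WT Smtn -0.084 to 0.34, for BAPN in KI Agtr1a -2.08 to 0.11, and for the r of Myocd with Des -0.30 to 0.32. Fits without the 4 libraries leave KI on plain water with replicates 3 and 4 alone. Alternatives for pathway lists, marker lists, the 36 pairs and the skeletal muscle covariate were added after the data were seen.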
